A study of Mus musculus and Homo sapiens with 18 samples.

Results

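MGHU3, a human bladder cancer cell line, was sequenced with IGFBP5 targeted and with sgScr, a control guide RNA. These are 6 of the 18 libraries of the series, 3 in each group, chosen by their sample labels. The labels call the targeted samples knockdowns made with sgIGFBP5, while the series design speaks of knockout lines. All 6 libraries come from the same line, which the library names spell with the added letters MP and LT. The treatment label names no drug for either group. They do not say whether the 3 libraries of a group came from separate cultures or from 1 clone, so p-values measure the spread between these libraries, which may be technical. The other libraries of the series are mouse.

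IGFBP5 is one of the binding proteins of insulin-like growth factors and is released by cells. Such proteins can hold the growth factors away from their receptor or carry them to it, and IGFBP5 also attaches to the extracellular matrix. One gene usually gives several transcripts through alternative promoters, splicing and polyadenylation. Salmon, which the submitters name, divides reads shared by transcripts of a gene among them by an estimate, so a transcript's count can shift without a change of the gene.

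The table held 228754 human transcripts under Ensembl transcript identifiers, which the files do not pair with genes. The comparison was therefore made by transcript. The level of IGFBP5, the markers of the line and gene pathways were not analysed here, and the effect of the guide on its own target was not checked. The libraries held between 19367119 and 21064260 estimated counts. At least 1 count was found for 124809 transcripts over the 6 libraries, and 44970 passed the filter on low counts and were tested.

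A small set of transcripts was called different with IGFBP5 targeted, more of them lower than higher. At an edgeR adjusted p under 0.05, 402 transcripts were higher and 754 lower in the targeted libraries, which is 2.57% of those tested. By direction, 0.894% of tested transcripts were called higher and 1.68% lower. In all 1156 called transcripts the 3 targeted libraries lay on one side of the 3 sgScr libraries. Over all tested transcripts, called or not, the groups did not overlap for 11813 or 26.3%, of which 5839 were higher and 5974 lower. Of these 11813, 10657 were not called. An unadjusted edgeR p under 0.05 was reached by 6966 transcripts, or 15.5% of those tested. The number called thus depends on the threshold and the method, and DESeq2 called 1713 higher and 2165 lower.

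Taken over all levels, the transcripts called lower changed by more than those called higher, though not at every level. The median log2 fold change was -1.15 for the 754 lower and 0.92 for the 402 higher transcripts. Setting transcripts absent from 1 group at their bound of 3 counts over that group could not move these medians, since every bound lay beyond them. With those transcripts left out, the median size was 1.04 for the lower and 0.86 for the higher ones. Among the lower ones 443 fell at least 2-fold, and 149 of these at least 8-fold. Among the higher ones 179 rose at least 2-fold and 63 at least 8-fold. Calls of at least 2-fold made up 1.38% of the tested transcripts. Most of the called changes in the higher direction were thus below 2-fold, 223 of 402. The median standard error of the log2 fold change was 0.13 over called transcripts and 0.46 over those not called, and 7095 transcripts differed 2-fold or more without passing the test.

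**Figure D1:**
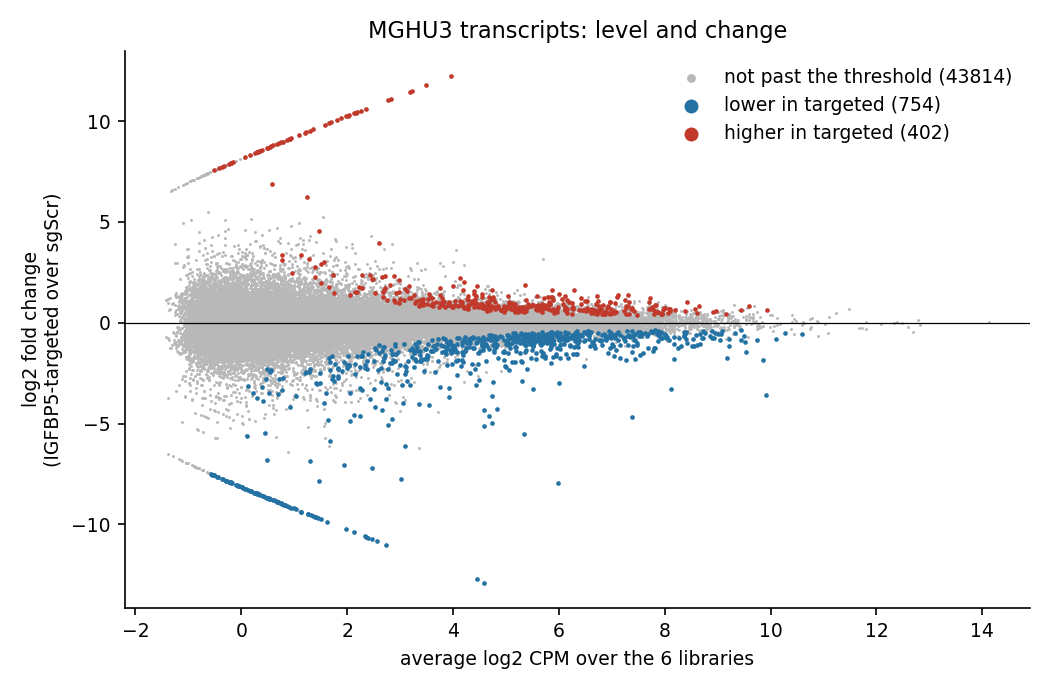
Each point is 1 of the 44970 tested transcripts, with the average log2 CPM (counts scaled to library size) of the 6 MGHU3 libraries on the x axis and the log2 fold change of IGFBP5-targeted over sgScr on the y axis. The 402 transcripts called higher are red and the 754 called lower are blue, and the straight outer lines of points are transcripts without any count in 1 group.

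The decreases led the ranking by p. All 20 transcripts with the smallest p were lower in the targeted libraries, with an edgeR adjusted p between 0.00119 and 0.00269. Their sgScr means lay between 38.7 and 893 CPM with a median of 85.6 CPM, and their targeted means between 0 and 264 CPM with a median of 12.2 CPM. The smallest change among them was 1.54 and the median 2.91 on the log2 scale. Of the 100 transcripts with the smallest p, 84 were lower and 16 higher. Of the first 500, 351 were lower and 149 higher.

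The largest changes were in transcripts present in 1 group and without counts in the other. By a rule on size, level and separation of the groups, 2 transcripts in each direction are given with their identifiers. Since the rule took the largest changes among calls whose groups did not overlap, that separation is no result of its own.

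ENST00000255006 had 47.5, 49.2 and 47.8 CPM in sgScr replicates 1 to 3 and 0 counts in each targeted library. Its sgScr level was 48.2 ± 0.892 CPM (SD, n = 3), so it was at least 959-fold lower (edgeR adjusted p = 0.00195). This bound sets its 2802 sgScr counts against a floor of 3 over the targeted libraries. Like the bounds given below, it covers counting error only. It does not allow for shifts in how reads are divided among the transcripts of a gene. In CPM all 3 sgScr libraries lay close together. Per length, the authors' TPM was 13.4, 17.7 and 15.6 in the sgScr libraries and 0 in the targeted ones.

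ENST00000360270 had 49.9, 35.8 and 44.5 CPM in sgScr replicates 1 to 3 and again 0 counts with IGFBP5 targeted. The sgScr level was 43.4 ± 7.10 CPM (SD, n = 3), at least 862-fold above the targeted floor (edgeR adjusted p = 0.00367). In CPM its sgScr libraries spread more widely than those of ENST00000255006, with replicate 2 the lowest, and the groups did not overlap. Its TPM was 16.0, 14.7 and 16.5 in sgScr replicates 1 to 3 and 0 in the targeted libraries. Per length, its spread was thus not the wider of these transcripts. Without sgScr replicate 3 the edgeR adjusted p was 0.0647.

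In the other direction, ENST00000562946 had 28.5, 31.0 and 33.1 CPM in targeted replicates 1 to 3 and 0 counts in each sgScr library. It was at least 599-fold higher (edgeR adjusted p = 0.00269), at 30.8 ± 2.29 CPM in the targeted libraries (SD, n = 3). Without targeted replicate 2 the edgeR adjusted p was 0.0536. Its TPM was 32.6, 35.6 and 39.3 in the targeted libraries, a level per length above that of both transcripts that fell.

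ENST00000648440 had 19.1, 26.9 and 20.96 CPM in the targeted libraries and 0 counts with sgScr. It was at least 431-fold higher (edgeR adjusted p = 0.00501), at 22.3 ± 4.06 CPM (SD, n = 3), with targeted replicate 2 the highest. This call was not kept when any 1 targeted library was left out (edgeR adjusted p between 0.0622 and 0.0671). Per length it was lower than the first, with TPM values of 5.86, 8.31 and 6.65.

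**Figure D2:**
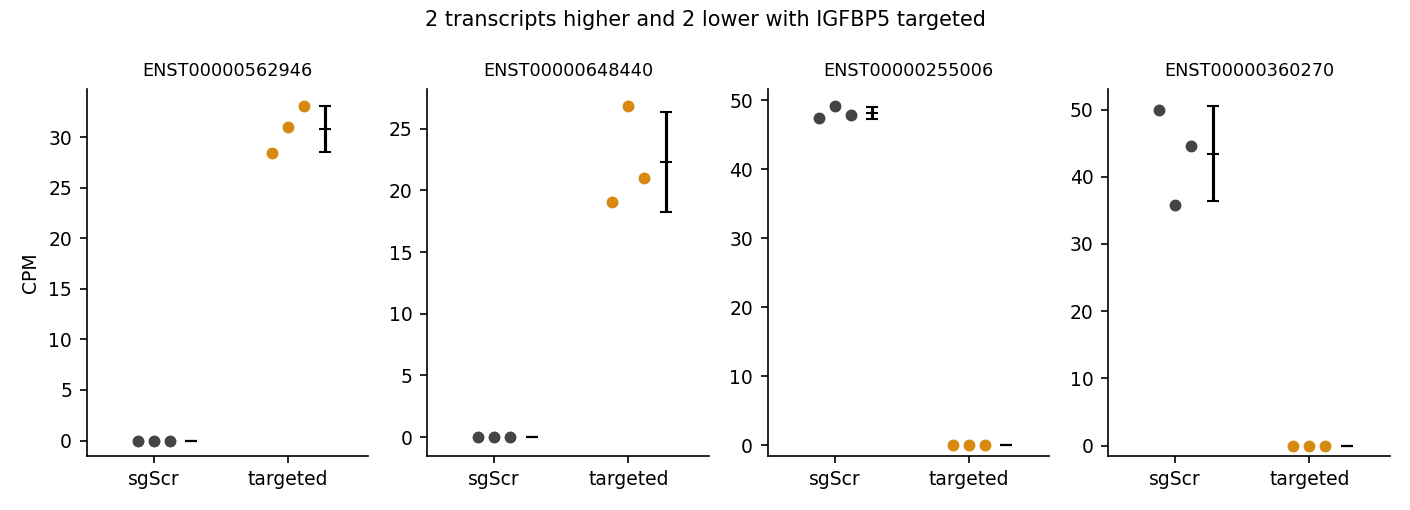
Each panel plots 1 transcript, with CPM on the y axis and the groups on the x axis. Points are replicates 1 to 3 from left to right and bars are the mean and SD. ENST00000562946 and ENST00000648440 are at 0 in all sgScr libraries, ENST00000255006 and ENST00000360270 at 0 in all targeted libraries.

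Presence in only 1 group occurred in both directions. Of the 228754 transcripts in the table, 149 had at least 10 counts in every sgScr library and 0 in all targeted ones. Another 126 had at least 10 in every targeted library and 0 in all sgScr ones. Of the 149, 138 were tested and 89 called, and of the 126, 118 were tested and 54 called. Over all tested transcripts 2.57% were called, but these were picked for their separation. With at least 100 counts in each library of the present group, 9 were absent from the targeted and 14 from the sgScr libraries, and all of these were called. Among called transcripts, 89 of the 754 lower and 54 of the 402 higher ones had no count in 1 group. Their bounds, which cover counting error only, lay between 22.9-fold and 959-fold for the lower and between 23.4-fold and 599-fold for the higher ones. Whether another transcript of the same gene changed the opposite way was not tested, since transcripts were not joined to genes.

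Called transcripts were found mostly at middle and high levels. Of 1940 transcripts with a mean over 100 CPM, 80 were higher and 144 lower, or 11.5%. Between 10 and 100 CPM 218 were higher and 389 lower of 11234, or 5.4%. Between 1 and 10 CPM 95 were higher and 190 lower of 21463, and under 1 CPM 9 and 31 of 10333. Lower calls outnumbered higher ones in each of these 4 classes. The median biological coefficient of variation (BCV, the relative spread between replicates beyond counting error) fell across them from 0.668 in the lowest to 0.133 in the highest class. Between 1 and 10 CPM the median size of log2 change was 3.38 for higher and 3.09 for lower calls. Under 1 CPM it was 7.88 and 7.90, between 10 and 100 CPM 0.85 and 0.95, and over 100 CPM 0.64 and 0.73.

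Abundant transcripts changed little in the higher direction. Of the 80 called higher with a mean over 100 CPM, 12 rose at least 2-fold and 0 at least 4-fold, and the largest log2 change was 1.37. Of the 144 called lower at that level, 40 fell at least 2-fold and 3 at least 4-fold, and the largest change was 4.65 on the log2 scale. The median log2 change was 0.64 for the higher and 0.73 in size for the lower ones. Among the 100 most abundant transcripts, with means between 645 and 17798 CPM, 3 were called higher and 12 lower, and 3 of the 100 differed 2-fold. Their median change in either direction was 0.25 on the log2 scale.

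The transcripts called lower made up a visible part of each library. Their estimated counts were 7.62 ± 0.157% of all counts in the sgScr libraries and 4.07 ± 0.0485% in the targeted ones (SD, n = 3). The transcripts called higher went from 1.91 ± 0.0798% with sgScr to 3.25 ± 0.0194% with IGFBP5 targeted (SD, n = 3). The groups did not overlap in either sum, which adds nothing, since they did not overlap for any transcript in it. These sums describe transcripts chosen for their difference between the same libraries and are given with no test.

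**Figure D3:**
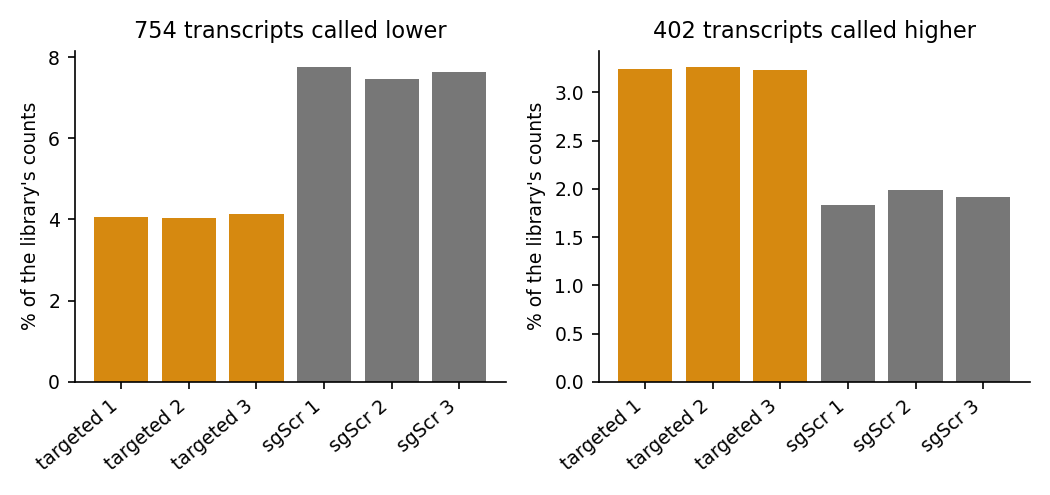
Bars show the percent of each library's estimated counts in the 754 transcripts called lower (left) and the 402 called higher (right), with the 6 libraries on the x axis. The 3 targeted libraries are orange and the 3 sgScr libraries grey, with group means of 4.07% and 7.62% on the left and 3.25% and 1.91% on the right.

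The transcripts called lower were longer than the others, and the libraries differed by length. Within a library, the count divided by TPM is proportional to a transcript's effective length, which was expressed relative to the median tested transcript. The median relative length was 2.12 for the 754 lower, 0.894 for the 402 higher and 0.949 for the transcripts not called. Among those with a mean over 10 CPM it was 2.31, 0.895 and 1.48. Of 4 length classes of equal size, the longest held 471 lower and 89 higher transcripts and the shortest 29 lower and 88 higher ones. The median log2 fold change over all transcripts of a class went from 0.11 in the shortest to -0.11 in the longest.

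The sgScr libraries did not share one trend on length, while the targeted libraries did. In sgScr replicate 2 the longest class lay 0.20 above the mean of the 6 libraries on the log2(CPM + 1) scale and the shortest class deviated by -0.15, as medians over transcripts with a mean of at least 1 CPM. In sgScr replicate 3 these values were 0.067 and -0.053. In sgScr replicate 1 they ran the other way, with -0.057 for the longest and 0.056 for the shortest class. The 3 targeted libraries were alike, between -0.0212 and -0.0147 for the longest and between 0.0801 and 0.102 for the shortest class.

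**Figure D4:**
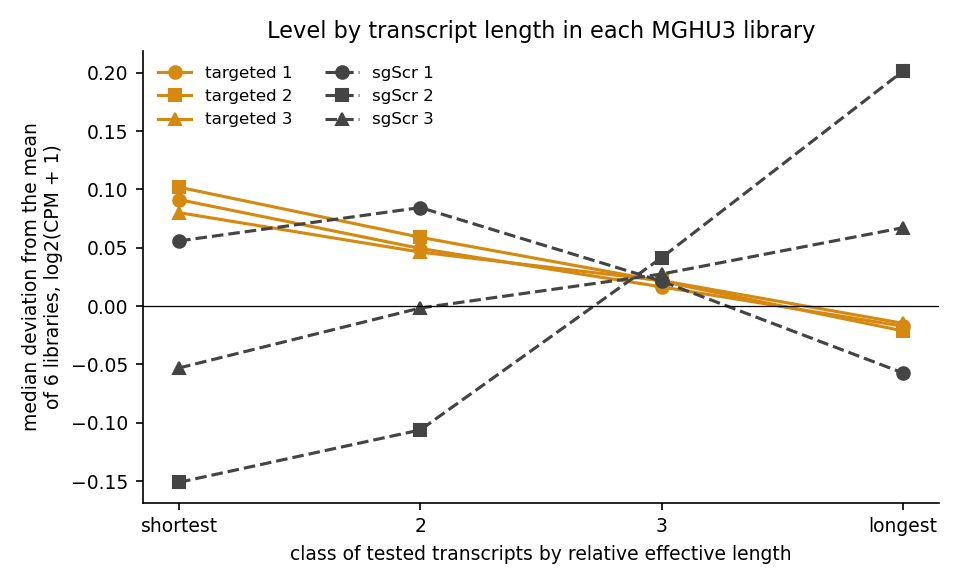
The x axis gives 4 equal classes of the tested transcripts by relative effective length. The y axis is a library's median deviation from the mean of the 6 libraries in log2(CPM + 1). Medians are over transcripts with a mean of at least 1 CPM, 6475 in the shortest and 10238 in the longest class. Targeted libraries (orange, solid lines) run together, while sgScr replicate 2 (dashed, squares) rises to 0.20 in the longest class and sgScr replicate 1 (dashed, circles) goes down to -0.057.

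With each library's trend on length removed, an alternative added after the data were seen, 287 transcripts were higher and 444 lower. Of the 1156 calls, 671 were among them with the same direction. The longest class then held 221 lower and 106 higher calls and the shortest 34 and 44, with a median log2 fold change of -0.0250 and -0.0258. The share of higher calls was 34.8% before and 39.3% after.

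The sgScr libraries were also less alike than the targeted ones. Pearson's r of log2(CPM + 1) across the 44970 transcripts, which are not independent replicates, was between 0.950 and 0.951 for pairs of targeted libraries. It was 0.915 between sgScr replicates 1 and 2, 0.937 between 1 and 3, and 0.941 between 2 and 3. Pairs across the groups gave 0.915 to 0.930, so sgScr replicates 1 and 2 resembled each other no more than libraries of different groups did. At least 1 count was found for 75539 transcripts in sgScr replicate 1 and 83007 in replicate 2, against 77282 to 78832 in the targeted libraries. The common BCV was 0.537 within the targeted and 0.636 within the sgScr libraries.

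The number of calls changed when any 1 library was left out. Each such fit also had fewer libraries in a group and a changed filter, and these were not told apart from the library itself. Without targeted replicate 1, 2 or 3 edgeR called 7, 0 and 8 transcripts higher and 60, 23 and 70 lower. An unadjusted p under 0.05 was reached by 5319 transcripts without targeted replicate 2. Without sgScr replicate 3 it was 12 higher and 42 lower. Without sgScr replicate 1 it was 528 higher and 539 lower, of which 740 in both directions were among the 1156 calls, and without sgScr replicate 2 it was 532 and 695, with 807 among them. The share of higher calls was thus 49.5% without sgScr replicate 1 against 34.8% with all libraries, and the surplus of lower calls was small there. With DESeq2 all 1156 calls were kept and 1713 transcripts were higher and 2165 lower.

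The spread of MGHU3 transcripts was large and uneven. The common BCV was 0.589, and single transcripts had a median of 0.439 with quartiles of 0.274 and 0.655. Of the 1156 calls, 847 were among the 11243 transcripts with a BCV below 0.274, or 7.53% of them. Above 0.655 it was 5 of 11243, or 0.0445%. The test itself uses the spread, so more calls at a low BCV are built in. The median levels of these 2 classes also differed, at 34.9 and 1.05 CPM. In the targeted libraries 3735 tested transcripts, or 8.31%, had 0 counts in at least 1 library and at least 1 CPM in another, and in the sgScr libraries 4475, or 9.95%. With at least 10 CPM in another library these numbers were 282 and 321.

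The mouse tumours of the series, labelled as relapsed after chemotherapy and as controls, could be read both by transcript and by gene, since their table pairs these. The 6 tumour libraries had a common BCV of 0.523 over 32281 transcripts and 0.0522 over 14373 genes after summing. Transcripts at 0 in 1 library and at least 1 CPM in another made up 7.39% in the relapsed and 7.61% in the control tumours, against 0.23% and 0.181% of genes. The BCV of single tumour transcripts had a median of 0.370 and a lower quartile of 0.179, both below those of MGHU3. Of tumour transcripts 32.5% were called, against 2.57% in MGHU3. The difference between these percentages was not tested, and the species, the annotation and the contrast differ.

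**Figure D5:**
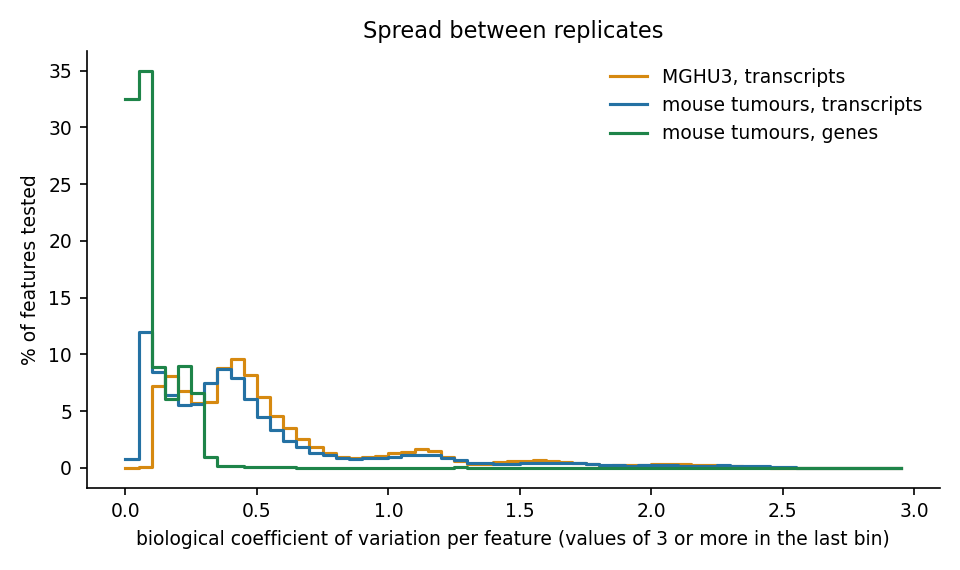
The x axis is the biological coefficient of variation of single features and the y axis the percent of tested features in steps of 0.05. Transcripts of MGHU3 (orange, median 0.439) and of the mouse tumours (blue, median 0.370) spread widely, while tumour genes summed from transcripts (green, median 0.0609) lie near 0.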

How the data were processed

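Poly(A)-selected RNA was sequenced with a stranded kit, per the labels' protocols. Per Ensembl transcript, estimated counts and TPM (abundance per length, scaled to a fixed total) were deposited by the authors. The submitters' processing notes name Salmon, with no version, beside GRCh38, hg38, GRCm38 and mm10; the human annotation release is not given in the sources used here. In the tables used, 0 columns lacked a sample.

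Estimated counts were rounded and tested with edgeR 4.0.16 in R 4.3.3 (quasi-likelihood, two-sided, TMM, filterByExpr, robust dispersion, Benjamini-Hochberg over all transcripts, threshold 0.05, these 6 libraries only). Standard errors are the absolute log2 fold change over the square root of F. CPM uses TMM-scaled library sizes. Bounds use a floor of 3 counts over the absent group and cover counting error only. Relative length used libraries with at least 10 counts for the transcript, and the length trend was a lowess curve with a span of 0.3.

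Transcripts named were the 2 largest changes per direction among calls with groups that did not overlap and a mean level of 2 or more on the log2 CPM scale. The choice of comparison and rules was made with earlier results of these data known. Planned fits by gene, of IGFBP5 and of gene lists were not run because no table paired human transcripts with genes. Alternatives used DESeq2 1.42.0 and limma 3.58.1, other scalings, filters and pseudocounts, the replicate number as a block, and each library left out. The edgeR step was tested on simulated data.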

Additional observations from a re-analysis of the deposited data

How the results depend on the processing

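The numbers of transcripts called, 402 higher and 754 lower, stayed within 1.5 times under RLE scaling, library size only, both other count filters and dispersion that was not robust. They did not with DESeq2 (1713 and 2165), limma on log2(TPM + 1) (155 and 381), a pseudocount of 0.1 (132 and 326), limma without a filter on TPM (188 and 462), or a fold of at least 2 (179 and 443). With the length trend removed the lower count was 444. With a library left out, higher calls ranged from 0 to 532 and lower calls from 23 to 695, and the common BCV, 0.589 with all libraries, from 0.640 to 0.689. With 2 libraries in a group the filter kept 49376 to 50516 transcripts; otherwise the cause of these differences was not tested.

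With the replicate number as a block, edgeR called 0 higher and 0 lower, with 5323 transcripts at an unadjusted p under 0.05. Deviations of same-numbered libraries hardly correlated, by 0.0079, 0.0048 and 0.0172, and those of differently numbered ones lay between -0.0155 and 0.0047. Each library was closest to its own number, but for sgScr replicate 2 only by 0.0048 against 0.0047. Whether same-numbered libraries were prepared together was not tested.

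The 4 named transcripts kept their direction in all alternatives that gave a value. Of 68 such fits 59 also kept the call, and 9 did not: 4 with the block and 5 with a library left out. The alternatives planned for gene sums and for IGFBP5 were not run, because transcripts were not joined to genes.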
